A study of Mus musculus with 9 samples.

Results

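Ccn1, Ccn2, Ankrd1, Ajuba, Amotl2, Axl, F3, Fjx1, Igfbp3 and Crim1 are 10 genes that are commonly used to read out the activity of the transcriptional coactivator Yap. They were selected by symbol from the 47643 genes counted, with earlier results of these data known. All 10 passed the filter on low counts (100 or more, summed over the 9 libraries). Their levels were compared between FACS-sorted pancreatic ductal adenocarcinoma (PDAC) cells that had kept Yap and cells that had lost it. KPF mice carried Trp53 frt/+, Pdx-Flp and R26 FSF-CreER/Dual among their alleles, and gave 6 libraries of GFP+Yap+ cells from 5 mice. KPYYF mice carried the same alleles together with Yap flox/flox, and gave 3 libraries of Tm+Yap- cells from relapsed nodules of 3 mice. In both genotypes Flp, driven by the Pdx1 promoter in the pancreas, recombined Trp53 and activated EGFP and CreER, and tamoxifen (TAM) in the diet was given once tumors could be felt. TAM exchanges EGFP for tdTomato (Tm) and, in KPYYF cells, also deletes Yap. Genotype, Yap status, reporter colour with the CreER recombination behind it, and origin from relapsed nodules therefore changed together and cannot be told apart here. Neither the ages nor the length of treatment of single mice are given in the labels.

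Yap does not bind DNA itself. When the kinases of the Hippo pathway are inactive it enters the nucleus, as does its paralog Taz (gene Wwtr1), and both activate genes through the TEAD transcription factors. The genes described here cover several kinds of target. Ccn1 and Ccn2 encode secreted matricellular proteins and Igfbp3 a secreted carrier of insulin-like growth factors. Crim1, Axl and F3 encode transmembrane proteins, of which Axl is a receptor tyrosine kinase and F3 is tissue factor, the starter of blood coagulation. Fjx1 is the mammalian homolog of Drosophila four-jointed. Ankrd1 encodes an ankyrin repeat protein, and Ajuba and Amotl2 encode proteins that themselves act on the Hippo pathway.

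Yap1, the deleted gene, was measured at 41.7 to 150.5 CPM (counts scaled to the TMM-normalized size of the library) in the KPF libraries. It was at 0.711 CPM in KPYYF library 4449, at 2.84 in 4891 and at 7.10 in 4938, so that no KPYYF library overlapped a KPF library. On the log2 scale the difference between KPYYF and KPF (the log2 fold change) was -4.79 (standard error, SE, 0.72, adjusted p = 0.0159 in edgeR's quasi-likelihood test). Without library 4891 the adjusted p of Yap1 was 0.0553, over all alternatives it ran from 8.27e-13 (DESeq2) to 0.0886 (limma-voom), and without 4938 the log2 fold change was -5.78. Wwtr1, the paralog, had a log2 fold change of 0.17 (SE 0.49, adjusted p = 0.913). Tead1, Tead2, Tead3 and Tead4 had log2 fold changes of 0.31, 0.14, -0.21 and 1.15, with adjusted p values of 0.780, 0.928, 0.960 and 0.442. Tead1, Tead2 and Tead4 had more than 3 counts in every library, while Tead3 had 3 counts in KPF library 4601 and 1 in KPYYF library 4449. No change of Wwtr1 or of a TEAD gene passed the test.

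The promoters show where the DNA partner of Yap could be recognized at these genes. RefSeq windows from 250 bases before to 50 bases after the start (GRCm38.p6) were present for 8 of the 10 genes. None was found under the symbols Ccn2 and Fjx1, so these genes are left out of what follows on promoters. The TEAD hexamer GGAATG, read on both strands as GGAATG or CATTCC, was found in 6 of these 8 windows, those of Ccn1, Ankrd1, Ajuba, Amotl2, Axl and Crim1, and 14.7% of the 32851 windows of the table hold it. Ankrd1 and Ajuba each held 2 matches, Ankrd1 at 210 and 123 bases and Ajuba at 186 and 164 bases before the start. The AP-1 motif TGANTCA was found in F3 alone, with 2 matches at 146 and 135 bases before the start, against 7.81% of all windows. None of the 8 windows held an SRF CArG box, which 1.63% of all windows hold, and the window of Igfbp3 held none of the 3 motifs. A match is a run of letters and not a measured binding site.

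The 250 bases before the start are shown for Ankrd1 (chr19:36119845-36120094) and Ajuba (chr14:54577662-54577911), which hold a pair of matches and were lower in KPYYF cells, and for Ccn1 (chr3:145649986-145650235) and Axl (chr7:25788734-25788983), which hold 1 match each and were not called lower. The number of matches did not follow the difference over the 8 windows, since Amotl2 and Crim1 also hold 1 match each and Igfbp3, with the largest difference, holds none. All 4 genes lie on the minus strand, the sequence is given along the gene's own strand from 5′ to 3′, and capitals mark the TEAD hexamer.
Ankrd1: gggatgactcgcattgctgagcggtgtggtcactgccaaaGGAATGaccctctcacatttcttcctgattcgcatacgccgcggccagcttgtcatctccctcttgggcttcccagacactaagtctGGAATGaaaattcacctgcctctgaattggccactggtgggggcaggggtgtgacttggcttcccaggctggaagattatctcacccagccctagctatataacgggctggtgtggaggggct
Ajuba: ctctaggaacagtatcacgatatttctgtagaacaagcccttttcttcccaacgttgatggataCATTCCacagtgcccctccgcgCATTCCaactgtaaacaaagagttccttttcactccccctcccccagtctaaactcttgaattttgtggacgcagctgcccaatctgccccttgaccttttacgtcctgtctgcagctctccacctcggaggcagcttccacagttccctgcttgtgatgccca
Ccn1: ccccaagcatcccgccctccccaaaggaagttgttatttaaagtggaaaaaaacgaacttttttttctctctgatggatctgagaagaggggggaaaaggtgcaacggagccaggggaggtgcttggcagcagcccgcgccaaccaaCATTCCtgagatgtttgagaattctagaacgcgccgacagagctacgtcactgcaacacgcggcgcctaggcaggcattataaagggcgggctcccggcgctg
Axl: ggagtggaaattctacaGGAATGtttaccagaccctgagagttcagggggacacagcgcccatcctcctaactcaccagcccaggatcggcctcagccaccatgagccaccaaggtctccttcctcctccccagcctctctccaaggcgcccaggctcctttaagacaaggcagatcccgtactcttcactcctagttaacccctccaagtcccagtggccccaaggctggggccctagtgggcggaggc
The hexamer was thus present both at genes with a large difference between the groups and at genes with a small one.

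Compared with KPF cells, Tm+Yap- cells had on average lower levels of 8 of the 10 genes and higher levels of Axl and Fjx1. Of all 14105 genes tested, 7518 were lower and 6587 higher. Among the 10, the differences were largest for Igfbp3, Ajuba, Ccn2 and Ankrd1, at 8.16-fold, 6.98-fold, 5.27-fold and 4.10-fold lower. F3, Amotl2 and Crim1 were 3.37-fold, 2.86-fold and 2.56-fold lower, and Ccn1 was 1.45-fold lower. Axl was 1.46-fold and Fjx1 2.28-fold higher. With adjustment over all 14105 genes tested, 0 of the 10 genes had an adjusted p under 0.05 in edgeR's quasi-likelihood test, where 0.794% of all genes passed as lower and 0.305% as higher. At an unadjusted p under 0.05, 6 of the 10 passed in edgeR, all as lower, as did 10% of all genes as lower and 6.1% as higher. DESeq2's Wald test called 4 of the 10 as lower after adjustment (Ccn2, Igfbp3, Ajuba and Ankrd1), where it called 6.58% of all genes lower and 1.91% higher.

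The methods of the study call a gene changed when its unadjusted p is under 0.05 and it differs by over 2-fold. By this rule 6 of the 10 genes were lower (Igfbp3, Ajuba, Ccn2, Ankrd1, Amotl2 and Crim1) and 0 were higher, while 9.2% of all genes tested were called lower and 4.2% higher. With DESeq2, the test named in those methods, 7 of the 10 were lower, with F3 added, and 0 were higher, against 12% of all genes lower and 4.51% higher. The median log2 fold change of the 10 genes was -1.64, and that of all genes tested -0.07. In 3 of the 10 (Ajuba, Igfbp3 and Crim1) every KPYYF library lay below every KPF library, as in 5.18% of all genes, and in 0 of the 10 did every KPYYF library lie above, as in 3.92% of all genes. The count by the rule was 5 without KPYYF library 4891 or without 4938, where Amotl2 was lost, and 7 without KPF library 4601, where F3 was added. In these fits, in that order, 1227 of 13850, 1250 of 13890 and 1165 of 13793 genes were lower by the rule.

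**Figure D1:**
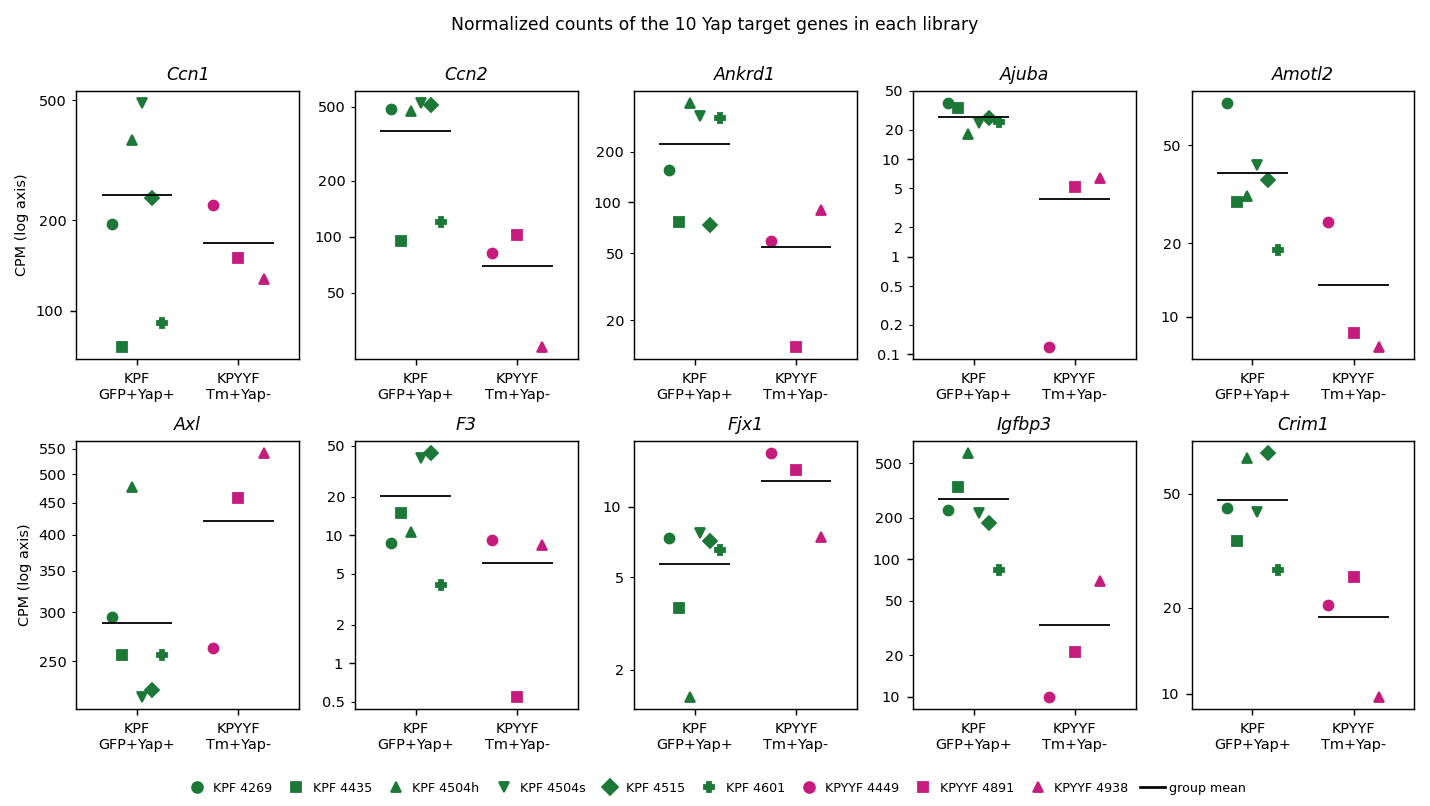
Normalized level of each of the 10 Yap target genes (CPM, log axis, a different range in each panel) in the 6 KPF and 3 KPYYF libraries. Each symbol is 1 library and the line is the group mean, and no KPYYF point reaches the KPF points for Ajuba, Igfbp3 and Crim1, while the groups overlap for the other 7 genes.

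Among the secreted proteins, Ccn2 (ENSMUSG00000019997, chromosome 10, 24595442 to 24598683, plus strand, GRCm38), which overlaps the antisense gene Gm15270 (28 counts in all libraries together), had a lowest, median and highest level of 95.3, 478 and 524 CPM in KPF libraries. In the KPYYF libraries 4449, 4891 and 4938 it was at 81.4, 102 and 25.6 CPM. Of the KPF libraries, 4435 and 4601 (121 CPM) lay near the KPYYF level and the other 4 lay at 472 CPM or above, so that 4891 was above 4435 and the groups overlapped by this library alone. The means were 368 ± 202 CPM (SD, n = 6) in KPF and 69.7 ± 39.6 CPM (SD, n = 3) in KPYYF. The log2 fold change was -2.40 (SE 0.68, unadjusted p = 0.00462 and adjusted p = 0.119 in edgeR).

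Its paralog Ccn1 (ENSMUSG00000028195, chromosome 3, 145646976 to 145649981, minus strand) differed much less. Its lowest, median and highest KPF levels were 75.9, 216 and 490 CPM, and the KPYYF libraries 4449, 4891 and 4938 were at 225, 150.0 and 128 CPM. All 3 KPYYF libraries lay inside the KPF range. The means were 243 ± 161 CPM (SD, n = 6) and 168 ± 51.2 CPM (SD, n = 3), and the log2 fold change of -0.54 (SE 0.54, adjusted p = 0.695) was as large as its standard error.

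Ccn1 and Ccn2 could be compared within each library, since the ratio of their counts does not depend on the depth or the scaling. This pair was chosen after the values were seen, so the ratio is given without a test. In KPF libraries Ccn2 had between 1.07 times (4504s) and 2.49 times (4269) as many counts as Ccn1. In the KPYYF libraries 4449, 4891 and 4938 the ratio was 0.361, 0.681 and 0.201. Each of the 6 KPF libraries therefore had more Ccn2 than Ccn1 counts, including 4435 and 4601, in which both genes were low. Each of the 3 KPYYF libraries had fewer Ccn2 than Ccn1 counts. The ratio shows that the genes differed unequally and not which of them changed.

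**Figure D2:**
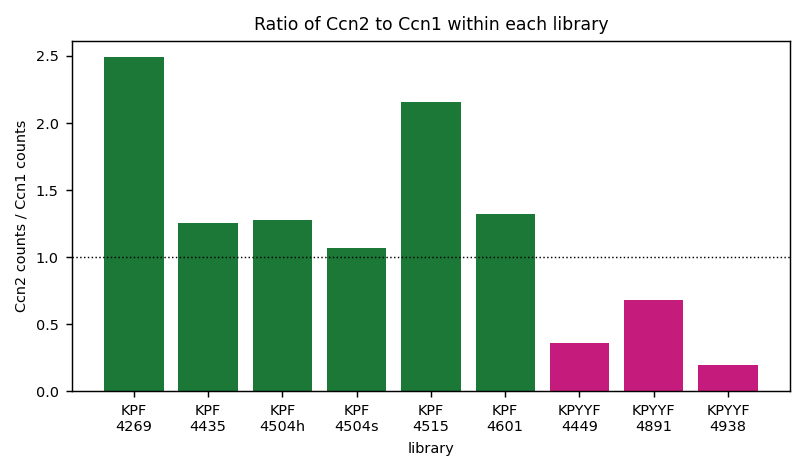
Counts of Ccn2 divided by counts of Ccn1 in each of the 9 libraries, with KPF libraries in green, KPYYF libraries in magenta and a dotted line at equal counts. All 6 KPF bars are above 1 (1.07 to 2.49) and all 3 KPYYF bars are below 1 (0.201 to 0.681).

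Igfbp3 (ENSMUSG00000020427, chromosome 11, 7206086 to 7213923, minus strand) showed the largest difference of the 10 genes. The lowest, median and highest KPF levels were 83.0, 223 and 593 CPM, and the KPYYF libraries were at 9.95 (4449), 21.2 (4891) and 69.3 CPM (4938). The groups did not overlap, although 4938 came close to the lowest KPF library, 4601. The means were 273 ± 176 CPM (SD, n = 6) and 33.5 ± 31.5 CPM (SD, n = 3). Its log2 fold change was -3.03 (SE 0.75, unadjusted p = 0.00202 and adjusted p = 0.0914 in edgeR), and -4.13 without 4938.

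Among the genes for transmembrane proteins, Crim1 (ENSMUSG00000024074, chromosome 17, 78200248 to 78376592, plus strand), whose product binds bone morphogenetic proteins, had KPF levels of 27.0, 43.8 and 69.4 CPM at the lowest, median and highest library. The KPYYF libraries 4449, 4891 and 4938 were at 20.5, 25.5 and 9.73 CPM. The groups did not overlap, with 4891 just under KPF library 4601. The means were 47.5 ± 17.2 CPM (SD, n = 6) and 18.6 ± 8.07 CPM (SD, n = 3). The log2 fold change was -1.35 (SE 0.45, unadjusted p = 0.00947 and adjusted p = 0.156 in edgeR). The 3′ end of Crim1 overlaps Fez2 on the opposite strand, and the strand setting of the counting is not given in the sources used here, so that reads of the overlap cannot be assigned with certainty.

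F3 (ENSMUSG00000028128, chromosome 3, 121723537 to 121735048, plus strand) varied most among the KPF libraries, from 4.07 CPM in 4601 over a median of 12.8 to 43.9 CPM in 4515. The KPYYF libraries were at 9.12 (4449), 0.545 (4891, 5 counts) and 8.42 CPM (4938). Only 4891 was below the KPF range, and 4449 and 4938 lay above KPF library 4601. With means of 20.4 ± 17.1 CPM (SD, n = 6) and 6.03 ± 4.76 CPM (SD, n = 3), the log2 fold change was -1.75 (SE 0.93). Its unadjusted p in edgeR was 0.0830 and its adjusted p was 0.385. The unadjusted p was 0.0439 in edgeR without KPF library 4601 and 0.0458 in DESeq2 with all libraries, where the adjusted p was 0.239.

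Axl (ENSMUSG00000002602, chromosome 7, 25757273 to 25788705, minus strand) went the other way. Its lowest, median and highest KPF levels were 219, 256 and 477 CPM, and the KPYYF libraries 4449, 4891 and 4938 were at 262, 459 and 541 CPM. All 3 KPYYF libraries were above the KPF median, but only 4938 exceeded the highest KPF library, 4504h. The means were 288 ± 96.7 CPM (SD, n = 6) and 421 ± 143 CPM (SD, n = 3). Its log2 fold change was 0.55 (SE 0.31, unadjusted p = 0.103 and adjusted p = 0.424 in edgeR), and the unadjusted p was 0.0208 without KPF library 4504h and 0.0292 without KPYYF library 4449, with adjusted p values of 0.212 and 0.232.

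Fjx1 (ENSMUSG00000075012, chromosome 2, 102449366 to 102452499, minus strand) was also higher on average. It was at 1.53, 6.86 and 7.72 CPM in the lowest, median and highest KPF library and at 17.1, 14.4 and 7.43 CPM in KPYYF libraries 4449, 4891 and 4938. Libraries 4449 and 4891 were above every KPF library and 4938 was within the KPF range. The means were 5.67 ± 2.50 CPM (SD, n = 6) and 13.0 ± 4.97 CPM (SD, n = 3). The log2 fold change of 1.19 (SE 0.69, adjusted p = 0.437) did not pass the test.

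Among the genes for intracellular proteins, Ankrd1 (ENSMUSG00000024803, chromosome 19, 36111961 to 36120099, minus strand) had lowest, median and highest KPF levels of 73.1, 237 and 389 CPM. The KPYYF libraries were at 59.3 (4449), 13.8 (4891) and 90.0 CPM (4938). Libraries 4449 and 4891 lay under every KPF library, and 4938 lay above KPF libraries 4435 and 4515. The means were 223 ± 138 CPM (SD, n = 6) and 54.4 ± 38.3 CPM (SD, n = 3). The log2 fold change was -2.04 (SE 0.72, unadjusted p = 0.0169 and adjusted p = 0.193 in edgeR).

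Ajuba (ENSMUSG00000022178, chromosome 14, 54567472 to 54577558, minus strand), a LIM domain protein that restrains the Lats kinases, was the most even of the 10 genes among KPF libraries, at 18.0, 25.1 and 37.6 CPM in the lowest, median and highest. In KPYYF it was at 0.118 CPM in 4449, which is a single count and under the 3 counts taken as the limit of detection, at 5.13 CPM in 4891 and at 6.34 CPM in 4938. The gap between the groups ran from 6.34 to 18.0 CPM. The means were 27.1 ± 7.08 CPM (SD, n = 6) and 3.86 ± 3.30 CPM (SD, n = 3). The log2 fold change was -2.80 (SE 0.82, unadjusted p = 0.00465 and adjusted p = 0.119 in edgeR), and -2.24 without 4449.

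Amotl2 (ENSMUSG00000032531, chromosome 9, 102716672 to 102733418, plus strand), of the angiomotin family that binds Yap, had KPF levels of 18.8, 33.6 and 74.5 CPM at the lowest, median and highest library. The KPYYF libraries 4449, 4891 and 4938 were at 24.3, 8.61 and 7.54 CPM. Libraries 4891 and 4938 lay below every KPF library, and 4449 lay above KPF library 4601. The means were 38.6 ± 19.2 CPM (SD, n = 6) and 13.5 ± 9.37 CPM (SD, n = 3). Its log2 fold change was -1.52 (SE 0.54, unadjusted p = 0.0150 and adjusted p = 0.181 in edgeR). Without 4449 it was -2.25, and without 4891 or 4938 the unadjusted p in edgeR was 0.0628 or 0.0667.

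**Figure D3:**
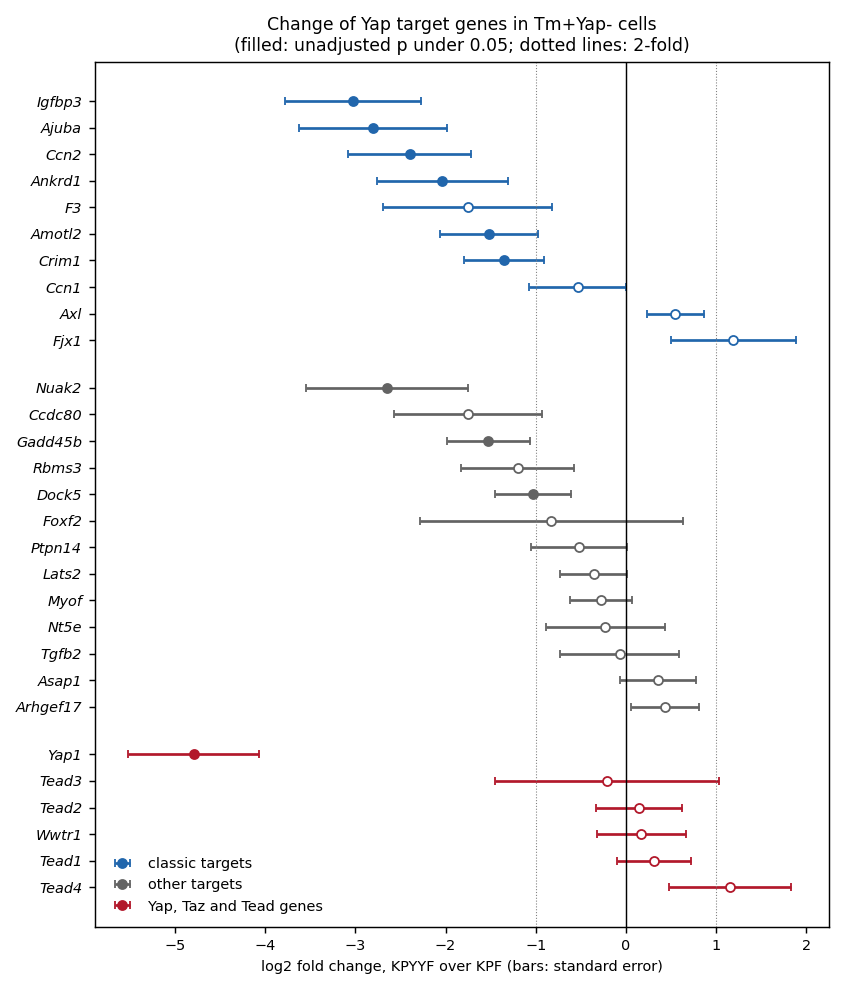
Log2 fold change of KPYYF over KPF (points, with standard errors as bars) for the 10 classic targets, 13 other targets, and Yap1, Wwtr1 and the Tead genes, with filled points at an unadjusted p under 0.05 in edgeR and dotted lines at 2-fold. Filled points among the classic targets run from Igfbp3 (-3.03) to Crim1 (-1.35), and Axl (0.55) and Fjx1 (1.19) lie to the right of 0.

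The 10 genes did not move as a block within a group. Among the KPYYF libraries, 4938, which had the most Yap1 counts left, was the lowest of the 3 for Ccn1, Ccn2, Amotl2, Fjx1 and Crim1, and the highest for Ankrd1, Ajuba, Axl and Igfbp3. Library 4449, with the fewest Yap1 counts, was the lowest for Ajuba, Axl and Igfbp3 and the highest for Ccn1, Amotl2, F3 and Fjx1. Library 4891 was the lowest for Ankrd1 and F3 and the highest for Ccn2 and Crim1. Ajuba, Axl and Igfbp3 thus followed the order of the 3 libraries by Yap1, Ccn1, Amotl2 and Fjx1 followed the reverse order, and the other 4 genes neither. That order rests on 6, 26 and 65 Yap1 counts in 4449, 4891 and 4938. With only 3 libraries a gene often falls into such an order by chance. The share of all genes that do so was not computed, so these orders are description only.

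Among the KPF libraries, 4601 was the lowest for Amotl2, F3, Igfbp3 and Crim1 and below the KPF median for 8 of the 10 genes. It also had the lowest Yap1 level of the KPF group, 41.7 CPM, and the lowest levels of Wwtr1, Tead1, Tead2 and Tead3. The 10 immune markers summed to 7869 CPM in this library, beside 413 to 1329 CPM in the other KPF libraries. Whether any of these bears on the low levels of the target genes was not tested. Library 4435 was the lowest for Ccn1 and Ccn2, although its Yap1 level of 150.5 CPM was the highest of all libraries. Library 4504h was the highest for Ankrd1, Axl and Igfbp3 and the lowest for Ajuba and Fjx1. In KPF cells the ratio of the highest to the lowest library ran from 2.09 for Ajuba to 10.8 for F3.

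**Figure D4:**
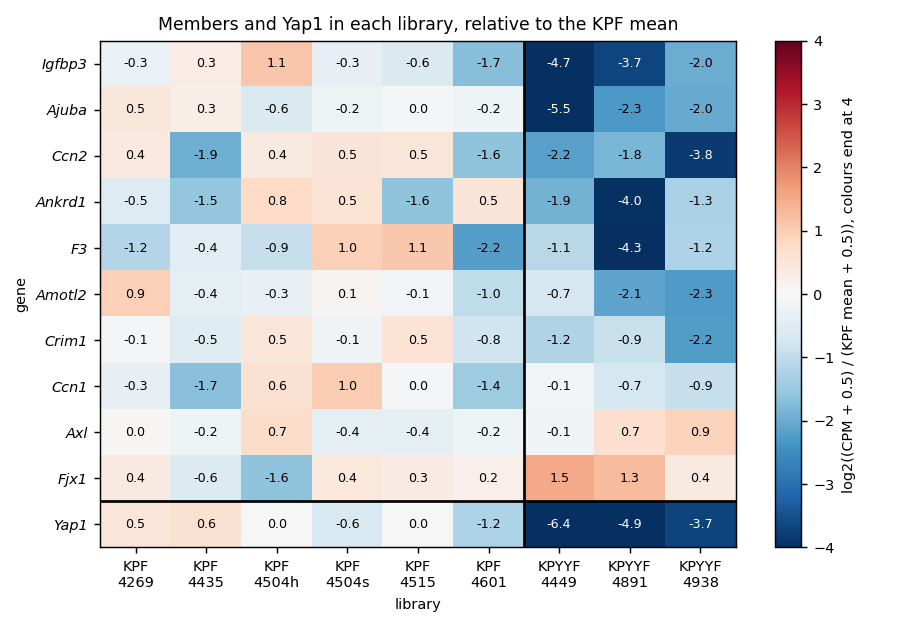
Level of each of the 10 genes and of Yap1 (rows) in each library (columns) as log2 of CPM plus 0.5 over the KPF mean plus 0.5, with red above and blue below the KPF mean and colours that end at 4 in either direction. The 3 KPYYF columns are blue for 8 of the genes, to a different degree in each library, and Axl and Fjx1 are red in 2 and 3 of them.

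Genes with the most similar profiles were sought among 8882 genes with a mean of at least 10 CPM, by the mean absolute difference of log2 CPM centred over the 9 libraries. The closest were Rtca for Axl (0.14 on the log2 scale), Usp53 for Crim1 (0.22), Dus3l for Fjx1 (0.25), Fah for Amotl2 (0.26), Srebf1 for Ccn1 (0.38), Abhd14b for Ajuba (0.38), Gatm for Ankrd1 (0.44), Myo5b for Igfbp3 (0.49), Tmem176a for Ccn2 (0.55) and Adamtsl5 for F3 (0.64). In second place were Dcaf13 for Axl (0.15), Entpd5 for Crim1 (0.28), Anxa4 for Amotl2 (0.29), Gosr2 for Fjx1 (0.32), Nr2c1 for Ccn1 (0.39), Pld1 for Ajuba (0.49), Gyg for Ankrd1 (0.52), Gne for Igfbp3 (0.55), Bicc1 for Ccn2 (0.60) and Plxna2 for F3 (0.65). Of the pairs within the 10 genes, Amotl2 and Crim1 were the closest (0.54). Each had nearer neighbours among the 8882 genes searched, but a search of that size makes a near match likely. These distances are therefore not a like comparison of genes inside and outside the group.

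A further 13 genes of published Yap and Taz target signatures, also chosen with earlier results known, were measured in the same libraries. Of these, 11 were lower and 2 higher in KPYYF cells, where 7518 of all 14105 genes tested were lower. Their median log2 fold change was -0.52, beside -0.07 for all genes tested. In edgeR 0 had an adjusted p under 0.05, where 0.794% of all genes passed as lower and 0.305% as higher. An unadjusted p under 0.05 in edgeR was found for 3, all lower, as for 10% of all genes as lower. DESeq2's Wald test called 2, Nuak2 (adjusted p = 0.0219) and Gadd45b (adjusted p = 0.0242), against 6.58% of all genes called lower. By the rule of an unadjusted p under 0.05 and more than 2-fold, 3 were lower in edgeR (4 in DESeq2) and 0 were higher, where 9.2% of all genes were lower in edgeR and 12% in DESeq2. Nuak2, a kinase related to AMPK, had a log2 fold change of -2.65 (SE 0.90), the stress gene Gadd45b -1.52 (SE 0.46) and Dock5, an activator of Rac, -1.03 (SE 0.42), with adjusted p values of 0.167, 0.127 and 0.242. In Gadd45b and Dock5 the groups did not overlap, with every KPYYF library below every KPF library as in 5.18% of all genes. Gadd45b was at 33.9, 30.3 and 25.8 CPM in KPYYF libraries 4449, 4891 and 4938 and at 42.6 CPM or above in KPF. The largest value of Nuak2, 62.5 CPM, was in KPF library 4601, and without that library its log2 fold change was -1.74 (unadjusted p = 0.0587 in edgeR). In limma-voom its unadjusted p was 0.127. Lats2, the Hippo kinase that is itself a Yap target, had a log2 fold change of -0.36 (SE 0.37, adjusted p = 0.703). Asap1 and Arhgef17 were the 2 that were higher, with 0.35 and 0.43 (SEs 0.42 and 0.38).

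The libraries held 8116539 to 9635514 reads on genes, so that 3 counts corresponded to 0.291 to 0.436 CPM. In bulk samples, fewer cells of a type and less RNA per cell cannot be told apart. The 6 epithelial markers summed to 3118 to 8161 CPM in KPF and 523 to 1547 CPM in KPYYF libraries, all 6 were lower (2 with an adjusted p under 0.05 in edgeR), and none was at 0 in any library. This moved with the same contrast as the target genes, and its part in their levels was not tested. The ranges of KPYYF and KPF overlapped for the fibroblast markers (1232 to 3312 and 416 to 5525 CPM over 10 genes), the endothelial markers (38.1 to 52.5 and 30.0 to 124 CPM over 10 genes) and the pericyte and smooth muscle markers (25.6 to 115 and 29.4 to 275 CPM over 6 genes). At 0 in at least 1 library were 7 of the 10 endothelial markers, 2 of the 10 fibroblast markers and 2 of the 6 pericyte and smooth muscle markers. Single markers of these lists passed the rule of an unadjusted p under 0.05 and more than 2-fold in edgeR in both directions. Among the endothelial markers, Kdr (-3.40 on the log2 scale) was lower. Among the fibroblast markers, Pdgfra (2.90 on the log2 scale) and Thy1 (1.92) were higher and Postn (-4.78) was lower, and among the pericyte and smooth muscle markers Notch3 (2.09) was higher and Acta2 (-2.65) and Rgs5 (-2.52) were lower. Their part in the levels of the target genes was not tested. The 10 immune markers summed to 354 to 699 CPM in KPYYF libraries and to 413 to 7869 CPM in KPF libraries, with the highest sum in 4601. Cd79a was at 0 in all KPYYF libraries, and it had 25 counts in 4601 and at most 1 in the other KPF libraries. The 6 acinar markers summed to 18771 CPM in KPF library 4504s and 5070 CPM in KPYYF library 4449 and to at most 919 CPM elsewhere, and Amy2a5 was at 0 throughout. Without 4504s, 4601 and 4449, chosen after the marker sums were seen, 5 of the 10 genes were lower by the rule. In that fit 1222 of 13057 genes were lower by it, and Ankrd1 had a log2 fold change of -1.71 (unadjusted p = 0.100 in edgeR).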

How the data were processed

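RNA of sorted tumor cells was made into 3′ end libraries (Lexogen QuantSeq Forward). The authors deposited raw counts per Ensembl gene, without normalization, 1 file per library. The submitters' processing notes name STAR, HTSeq and mm10. Versions, annotation release and strand setting are not given in the sources used here. The methods text describes BeadChips, but the values are whole numbers. The 5 summary lines of each file were left out, and 38.5 to 42.0% of the listed reads were on genes in KPF and 37.3 to 38.2% in KPYYF. Alignments that were not unique made up 43.8 to 48.5% in KPF and 49.2 to 53.4% in KPYYF. The groups overlapped in neither share, and the part of this in the levels was not tested. KPF libraries held 8264587 to 9635514 gene reads and KPYYF libraries 8116539 to 8725132.

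Symbols were matched by identifier in GENCODE M21 for 47224 of 47643 genes. The 14105 genes whose counts summed to 100 or more were tested with edgeR 4.0.16's quasi-likelihood test, robust, with TMM factors and no covariates, in R 4.3.3. P values are two-sided and adjusted by Benjamini-Hochberg over all genes tested. Standard errors (SE) were obtained from the fold change and the F statistic, as log2 fold change over square root of F. CPM were computed with the TMM-scaled library sizes, and profiles used log2 CPM with a prior count of 2. The fit was tested on simulated data. One allele that both genotypes share is not reported here. Libraries 4504h and 4504s share a mouse number, and nothing else in the labels says how samples were taken, so that p values measure the spread between these libraries. The main fit counts 4504h and 4504s as separate libraries. With the counts of both summed, 6 of the 10 genes were lower by the rule, as were 1278 of 14105 genes. Ccn1 then had a log2 fold change of -0.28.

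The members and gene lists were chosen with earlier results of these data known. Genes named are the 10 members, the 13 other targets where values are needed, Yap1, Wwtr1 and Tead1 to Tead4, the marker genes needed beside a result, and the 2 most similar profiles per member. Alternatives were DESeq2 1.42.0, RLE and upper quartile factors, no filter, filterByExpr, limma 3.58.1 voom with quality weights, 4504h and 4504s summed, each library left out, and libraries with over 1000 Xist reads. Xist had 13854, 3452 and 16108 counts in KPYYF libraries 4449, 4891 and 4938. In KPF it had 10933, 7434 and 5878 counts in 4435, 4504h and 4504s, but 79, 71 and 159 in 4269, 4515 and 4601. Xist was thus not balanced between the groups. With only the libraries over 1000 Xist reads, 6 of the 10 genes were lower by the rule, as were 887 of 13077 genes. Leaving out 4504s, 4601 and 4449 together was added after the data were seen. Figures were drawn with matplotlib 3.10.9.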

Additional observations from a re-analysis of the deposited data

Results flagged for a closer look

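In 29 genes, the 6 KPF libraries were checked by Dixon's test for a library far from the others, on the CPM scale. The test flags about 1 in 20 groups by chance if values are normally distributed, which CPM need not be. Such a library was found in 3 genes, each time at the high end, and the log2 scale was not checked. Axl was at 477 CPM in KPF library 4504h, while the next library was at 295 and the lowest at 219 CPM. Nuak2 was at 62.5 CPM in 4601, while the next was at 17.7 and the lowest at 4.29 CPM. Gadd45b was at 188 CPM in 4515, while the next was at 88.9 and the lowest at 42.6 CPM.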

How the results depend on the processing

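The log2 fold changes of the 10 genes kept their direction under all 18 alternatives. Past the adjusted threshold of 0.05 were 0 of the 10 in edgeR and limma-voom under every setting, with a lowest adjusted p of 0.0503 (Ajuba, without KPYYF library 4449), and 4 with DESeq2, where the adjusted p was 0.00131 for Ccn2, 4.57e-05 for Igfbp3, 0.00414 for Ajuba and 0.0154 for Ankrd1. The cause of this difference was not tested. Over all genes, 43 were higher and 112 lower in edgeR and 269 and 928 in DESeq2, 88 and 219 without the filter, 44 and 39 in limma-voom, and 6 to 75 and 13 to 198 with 1 library left out. By the rule of an unadjusted p under 0.05 and more than 2-fold, 887 to 1698 of all genes were lower over the fits. The lowest count was with over 1000 Xist reads (13077 genes tested) and the highest with DESeq2 (14105). Of the 10 genes, the number lower by this rule was 5 to 7. For the 13 other targets it was 3, with a range of 2 to 5 over the fits that each left out 1 library, 2 without KPF library 4515 or KPYYF library 4449, 5 without KPF library 4269 or KPYYF library 4938, and 1 without 4504s, 4601 and 4449 together. The largest range of a log2 fold change was that of Igfbp3, from -4.13 to -2.60. No paired analysis was possible because the groups come from different mice. The log2 fold change of Ccn1 ran from -0.89 to -0.19 and passed no threshold in any of these fits.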
